A study of Mus musculus with 12 samples.

Results

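Actin cytoskeleton and contractile genes were followed through the differentiation of 2 mouse fat cell lines. The list held 37 gene symbols in 3 roles: 10 smooth-muscle genes, 15 focal adhesion genes and 12 general actin genes. Members were found by symbol in the array annotation among probe sets that carry a single symbol, and the probe set with the highest mean stood for a gene with several. Of the 37 symbols 36 were found, among 18193 genes in all. Ptk2 had no probe set of that kind and was not analysed here. Of the 36, 34 passed the filter on dim genes and were tested with 13752 genes. Cnn1 passed it on 0 of 12 arrays and Fhl3 on 1. The smooth-muscle group thus had 9 tested genes, the focal adhesion group 13 and the general actin group 12.

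Total RNA was measured on 12 Affymetrix arrays, 3 for each of 4 groups. White preadipocytes were 3T3-L1 cells, an established mouse line of white-type fat cell precursors, harvested at day 0, 2 days after confluence. White adipocytes were the same line at day 10, after 3 days of induction, 2 more days with insulin as the sole addition and then plain growth medium. Its induction mix held insulin at 1 µg/mL, the phosphodiesterase inhibitor IBMX at 0.5 mM and the glucocorticoid dexamethasone at 1 µM. Brown preadipocytes were cells of a brown fat line at day 0, also 2 days after confluence. Brown adipocytes were that line at day 8, after 3 days of induction and then insulin and T3 until harvest. Its induction mix held dexamethasone and IBMX at the same doses, insulin at 20 nM, the thyroid hormone T3 at 1 nM and indomethacin at 125 µM. Medium held 10% serum and 1% penicillin-streptomycin for both lines, the serum being named fetal calf serum for 3T3-L1 and FBS for the brown line. The sources used here do not give the origin of the brown line or say whether it is 1 clone. The lines also differed in induction mix, medium and day of harvest, and the parts of these in a difference between the lines cannot be told apart.

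Actin filaments form the contractile and load-bearing skeleton of a cell, and in spread fibroblast-like precursors they bundle into stress fibres. Stress fibres end in focal adhesions, plaques in which integrins are joined to actin through talin, vinculin, alpha-actinin, zyxin and LIM-domain proteins. Free actin monomer holds the coactivator MRTF (Mrtfa, Mrtfb) in the cytoplasm. When monomer is used up by polymerization, MRTF enters the nucleus and works with serum response factor (SRF), which binds the CArG box and drives many genes of smooth muscle and of the cytoskeleton. Fat cell precursors round up and lose stress fibres as they turn into adipocytes.

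The CArG box was searched for, because SRF is itself a member and the smooth-muscle genes are textbook SRF targets. The windows ran from 250 bases before to 50 bases after RefSeq transcription starts (assembly GRCm38.p6). The box was matched without mismatches. Its pattern reads alike on both strands, so a match on either strand is the same match. Of the 37 symbols, 34 had a window, and Csrp2, Tagln and Ptk2 had none in the table. The box stood in a window of 8 of these 34 genes (23.5%), against 307 of 17492 protein-coding genes (1.76%). Because the list holds Srf and textbook SRF targets, a high share comes with the choice of genes and is no test of it. By role the share was 25% of 8 smooth-muscle, 21.4% of 14 focal adhesion and 25% of 12 general actin genes. The 8 were Myl9 and Srf among smooth-muscle genes, Vcl, Fhl1 and Fhl2 among focal adhesion genes, and Cnn2, Filip1l and Lima1 among general actin genes. Cnn2, Filip1l, Lima1 and Vcl held the same 10 letters, CCTTATAAGG. The following stretches show the box in members whose changes are described further on, written 5′ to 3′ on the strand of the gene with the box in capitals. They are, in order, chr2:156775278-156775337 (plus strand), chr17:46556210-46556269 (minus strand) with 2 boxes, chr10:79988519-79988578 (plus strand), chr16:57549155-57549214 (plus strand), chr1:43163962-43164017 (minus strand) and chrX:56779556-56779615 (plus strand).
Myl9: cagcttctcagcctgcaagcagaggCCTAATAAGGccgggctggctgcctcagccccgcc
Srf: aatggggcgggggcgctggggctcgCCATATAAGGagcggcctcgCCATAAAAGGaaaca
Cnn2: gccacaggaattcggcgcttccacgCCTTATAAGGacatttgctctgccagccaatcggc
Filip1l: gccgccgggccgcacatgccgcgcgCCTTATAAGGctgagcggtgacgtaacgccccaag
Fhl2: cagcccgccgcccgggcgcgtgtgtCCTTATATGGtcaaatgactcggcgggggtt
Fhl1: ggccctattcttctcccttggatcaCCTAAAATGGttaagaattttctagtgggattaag
The first base of the box lay 161 bases before the start in Myl9, 56 in Cnn2, 62 in Filip1l, 102 in Fhl1 and 31 in Fhl2. In Srf the boxes began 82 and 62 bases before it. Fhl2 also had a box at another start site, 96 bases before it. The letters CATTCC, part of the TEAD motif and searched on both strands, stood in a window of 9 of the 34 genes (26.5%), against 15.5% of protein-coding genes. A match is a run of letters and was not measured as a binding site here, and genes without a match lack only these letters in this window.

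Marker genes were read before the members. Adiponectin (Adipoq) stood at 31.9 ± 16.4 (SD, n = 3) in white preadipocytes and at 32117 ± 2551 in white adipocytes, but already at 18695 ± 2319 in the brown group labelled preadipocyte and at 26332 ± 497 after differentiation. Pparg, the master regulator of adipogenesis, stood at 649.9 ± 27.6 and 3188 ± 167 in white and brown preadipocytes, and at 8559 ± 357 and 8998 ± 279 in the adipocytes. The label of day 0 is kept for the brown group, with these levels in view. The preadipocyte gene Dlk1 fell from 6452 ± 809 to 779 ± 67.7 in white cells and from 981 ± 28.6 to 31.8 ± 0.309 in brown cells. Among the other preadipocyte markers, Pdgfrb fell in white cells, while Pdgfra (2595 ± 138 and 2970 ± 269) and Cd34 were not called. In brown cells all 4 preadipocyte markers fell. Pdgfra and Cd34 were higher in brown than in white preadipocytes, and Dlk1 and Pdgfrb were lower. Of 4 endothelial markers 0 passed the filter in any group. In bulk RNA, fewer cells of a kind and less RNA per cell cannot be told apart.

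On the scale used, log2(signal + 16), a change is a difference of group means with its SE, and a gene was called when its adjusted p was under 0.05. P-values came from limma with Benjamini-Hochberg adjustment over the 13752 genes, two-sided. For dim genes this scale gives smaller changes than the plain ratio of signals would. Probe sets of different genes are not compared in level.

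White differentiation was accompanied by lower expression of nearly every tested member. Of 34, 33 fell and 0 rose, against 31.2% of all tested genes called lower and 30.1% called higher. The median change of the members was −1.52, against 0.02 over all genes. The member that was not called was Pdlim5, a PDZ and LIM protein of the actin cytoskeleton, at −0.18 (SE 0.0968, adjusted p = 0.133). It was called at −0.66 with a probe set of more specific design (adjusted p = 0.00134) and at −0.42 with its probe sets averaged (adjusted p = 0.000308). It was also called at −0.46 scaled to hybridization controls (adjusted p = 0.00187) and at −0.31 with equal medians (adjusted p = 0.0249). Without brown preadipocyte replicate 2 it was called at −0.18 (adjusted p = 0.0326). Falls of at least 2-fold were seen in 23 members, against 12.5% of all genes, and rises of that size in 0, against 13.3%. All 9 smooth-muscle genes fell, with a median of −2.48, as did 12 of 13 focal adhesion genes (median −1.16) and 12 of 12 general actin genes (median −1.55). The 3 white adipocyte arrays did not overlap the 3 white preadipocyte arrays in 34 of 34 members, and groups of 3 did not overlap in 66.1% of all tested genes.

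Brown differentiation showed the same direction in 30 of 34 members, while 1 rose and 3 were not called. Over all tested genes 31.6% were called lower and 27.2% higher. The median was −1.75 against −0.03 over all genes, and 23 members fell and 1 rose at least 2-fold, against 12.7% and 9.78% of all genes. The member that rose was Fhl1, a four-and-a-half LIM protein, at 2.64 (SE 0.143, adjusted p = 1.13e-07). The 3 that were not called were Csrp1, a cysteine- and glycine-rich LIM protein of actin filaments, at 0.17 (SE 0.1001, adjusted p = 0.168), Pdlim5 at −0.12 (SE 0.0968, adjusted p = 0.308), and alpha-actinin 4 (Actn4) at −0.02 (SE 0.0584, adjusted p = 0.835). The sign of these small values is not stable: with arrays scaled to hybridization controls Csrp1 stood at −0.0408, and with equal medians Actn4 stood at 0.00369. Scaled to hybridization controls, Actn4 was called at −0.23 (adjusted p = 0.0186) and Pdlim5 at −0.33 (adjusted p = 0.0128). Pdlim5 was called at −0.89 (adjusted p = 0.000213) with a probe set of more specific design. Of its 6 other detected probe sets, however, 3 moved down in brown cells and the rest gave 0.15, 0.09 and 0.33. The set at 0.09 was also of more specific design. By role, 8 of 9 smooth-muscle genes fell (median −1.94), 11 of 13 focal adhesion genes fell and 1 rose (median −1.61), and 11 of 12 general actin genes fell (median −1.04). Arrays did not overlap in 32 of 34 members, against 65.2% of all tested genes. Brown preadipocytes in this comparison already carried adipocyte genes, as given above, and the part of this in the results was not tested.

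**Figure D1:**
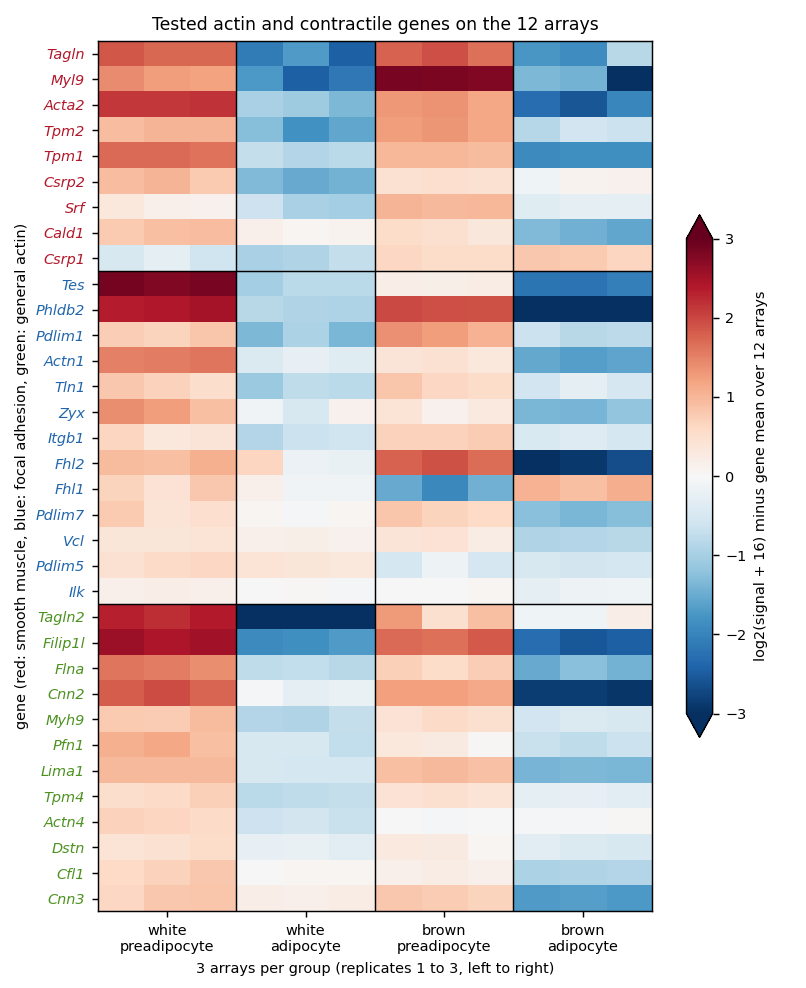
Log2(signal + 16) of the 34 tested members (rows, grouped by role) on the 12 arrays (columns, 3 per group), as the difference from each gene's mean over the arrays, from blue (lower) to red (higher). Nearly all rows are higher in both preadipocyte groups than in the adipocytes of the same line, while Fhl1 is higher in brown adipocytes than in brown preadipocytes.

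The smooth-muscle genes made the largest median fall of the 3 roles in both lines. Smooth muscle actin (Acta2), the actin of smooth muscle and of stress fibres in myofibroblasts, read 12274, 12312 and 12782 on the 3 white preadipocyte arrays and 1419.6, 1329.8 and 1095 in white adipocytes. In the brown line it read 6949, 7130.3 and 6279 and then 563, 461 and 710.0. No adipocyte array came near a preadipocyte array, and the change was −3.27 (SE 0.145, adjusted p = 1.79e-08) in white and −3.54 (SE 0.145, adjusted p = 1.66e-08) in brown cells. The Acta2 probe set is of a design that can match related transcripts, and actins are close in sequence, so its signal can include other actins.

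Transgelin (Tagln), a calponin-like protein that binds actin filaments and marks smooth muscle, read 633, 575 and 573 in white preadipocytes and 25.7, 39.3 and 16.4 in white adipocytes. In the brown line it read 594, 661 and 548 before and 37, 33.1 and 84.2 after differentiation. The preadipocytes of both lines were alike in range, and the adipocyte arrays lay near the filter level of 32.9 to 41.2. The white change was −3.85 (SE 0.263, adjusted p = 4.57e-07), and the brown change −3.27 (SE 0.263, adjusted p = 2.09e-06).

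Myl9, the regulatory light chain of myosin in smooth muscle and non-muscle cells, read 504, 444 and 428 in white preadipocytes and 42.4, 19.2 and 27.3 in white adipocytes. The brown preadipocytes read 1372, 1359 and 1312 and the brown adipocytes 60.4, 55.9 and 4.13. Brown preadipocytes lay above all other arrays, and brown adipocyte replicate 3 lay far below the other 2 of its group. The white change was −3.40 (SE 0.428, adjusted p = 4.92e-05) and the brown change −4.83 (SE 0.428, adjusted p = 4.29e-06), with the largest SE among the members. Myl9 passed the filter on 9 of 12 arrays and Tagln on 8, while the other 32 tested members passed on all 12.

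Tropomyosin 1 (Tpm1), which lies along the actin filament and governs access of myosin, read 6902, 6913 and 6539 and then 1269, 1146 and 1202 in white cells. The brown arrays read 4207, 4219.7 and 4086 and then 554, 578 and 579. Its 4 groups were separate from each other, and the change was −2.48 (SE 0.0584, adjusted p = 2.45e-10) in white and −2.84 (SE 0.0584, adjusted p = 2.59e-10) in brown cells. Tropomyosin 2 (Tpm2) fell by 2.55 (SE 0.129) in white and by 1.94 (SE 0.129) in brown cells. Another, dimmer probe set of the gene, of a more specific design, gave −0.53 and −0.57. The white fall lost its call with that probe set (adjusted p = 0.0594). Further detected Tpm2 sets, of less specific designs, gave −2.95 and −2.21 in 1 case and −2.44 and −3.29 in another. The order of the lines thus depended on the probe set.

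The remaining smooth-muscle genes fell less evenly. Caldesmon (Cald1), which binds actin and tropomyosin, went from 20017 ± 1053 (SD, n = 3) to 11730.3 ± 391 in white and from 14956 ± 1002 to 4003 ± 299.5 in brown cells. Its changes were −0.77 (SE 0.0783) and −1.90 (SE 0.0783). The probe set used is of a less specific design. Other detected Cald1 sets, of more specific design, gave −1.70 and −2.82 in 1 case and −2.003 and −2.811 in another. The dimmest of them gave −0.63 and −1.66. The size of the white fall thus depended on the probe set, while each of these sets fell more in brown cells. Csrp2, a LIM protein of smooth muscle, went from 5539 ± 437 to 1087 ± 69.97 in white cells, a change of −2.33 (SE 0.0886). In brown cells it went only from 4091 ± 57.2 to 3043 ± 292, a change of −0.43 (SE 0.0886). Its relative Csrp1 fell by 0.40 (SE 0.1001) in white cells. Srf itself, with 2 CArG boxes near its own start, fell by 1.07 (SE 0.101) and 1.31 (SE 0.101). Calponin 1 (Cnn1), a marker of the contractile smooth muscle cell, stayed between 4.06 and 22.1 on the 12 arrays, below the filter on each.

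**Figure D2:**
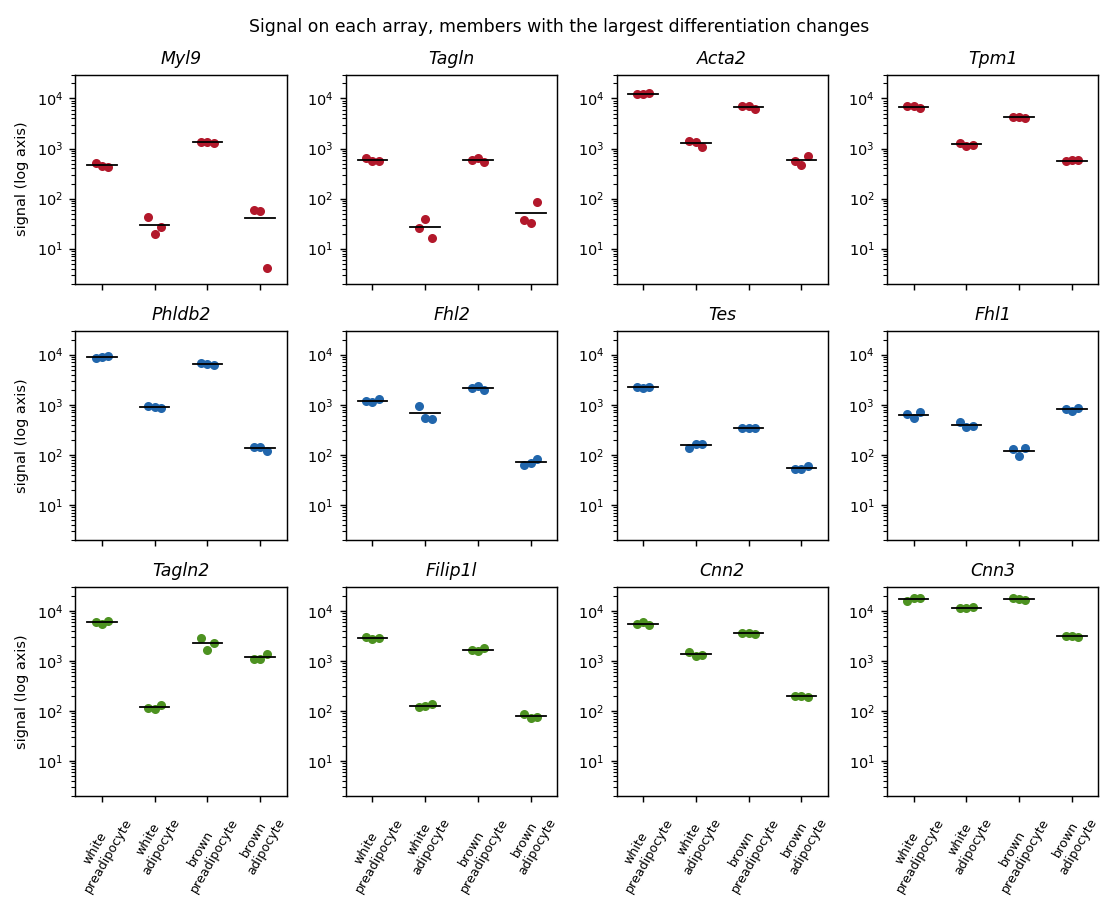
Signal on each array (points, log axis) and group mean (black line) for the 4 genes of each role with the largest changes on differentiation: top row smooth-muscle genes (red), middle row focal adhesion genes (blue), bottom row general actin genes (green). Fhl1 is the panel in which brown adipocytes lie above brown preadipocytes, and Tagln2 the one in which white adipocytes, at 109 to 132, lie far below the brown adipocytes, at 1078 to 1361.

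The focal adhesion genes ranged in change from −3.71 to −0.17 in white and from −5.41 to 2.64 in brown cells. Phldb2, a PH-domain protein found at the cell cortex around focal adhesions, read 8720.1, 9015 and 9518 and then 944, 892 and 872 in white cells. On the brown arrays it read 6677, 6439 and 6346 and then 146, 145 and 119.9. The preadipocyte groups were within 2-fold of each other, while the brown adipocyte arrays lay far below the white adipocyte arrays. The change was −3.31 (SE 0.0789, adjusted p = 2.59e-10) in white and −5.41 (SE 0.0789, adjusted p = 8.08e-11) in brown cells.

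Testin (Tes), a LIM protein of focal adhesions and stress fibres, read 2288, 2148 and 2267 before and 139.8, 165 and 163 after differentiation in white cells. Brown cells gave 349, 338 and 350.1 before and 52.8, 51.4 and 60.2 after differentiation. It was low in brown preadipocytes already, and it still fell in both lines, by 3.71 (SE 0.0759, adjusted p = 9.94e-11) and 2.35 (SE 0.0759, adjusted p = 3.35e-09).

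The four-and-a-half LIM proteins parted. Fhl2, a LIM-only cofactor found at focal adhesions and in the nucleus, read 1178, 1155 and 1289 in white preadipocytes and 954, 537 and 517 in white adipocytes. In brown cells it read 2108, 2338 and 1975 and then 62.2, 67.6 and 82.6. White adipocyte replicate 1 lay close to the white preadipocytes, the other 2 lay clearly below them, and the brown adipocytes lay far below all other arrays. The change was −0.89 (SE 0.202, adjusted p = 0.00301) in white and −4.64 (SE 0.202, adjusted p = 2.51e-08) in brown cells.

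Fhl1, a LIM-only protein abundant in muscle, read 638, 547 and 708 before and 447, 366 and 370.1 after differentiation in white cells. In brown cells it read 129, 93.3 and 137 before and 832, 760.1 and 867 after differentiation. Brown preadipocytes were the lowest group and brown adipocytes the highest, with no overlap between any groups. The white change was −0.65 (SE 0.143, adjusted p = 0.00231), a call that was lost when all probe sets of the gene were averaged (adjusted p = 0.0671). The other Fhl1 probe set in that average was below the filter, with a mean signal of 19.7. Fhl3 stayed between 4.34 and 50.1, above the filter on 1 array.

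Of the proteins that tie integrins to actin, beta-1 integrin (Itgb1), the shared chain of most matrix receptors, fell by 1.16 (SE 0.101) in white and 1.17 (SE 0.101) in brown cells. The next brightest Itgb1 probe set gave smaller falls, −0.48 and −0.74. Dimmer detected sets gave −0.36 and −1.06, −0.69 and −0.83, and 0.15 and −0.15. The size of the Itgb1 fall thus depended on the probe set. Talin 1 (Tln1), which activates integrins, fell by 1.56 (SE 0.124) and 1.12 (SE 0.124). Alpha-actinin 1 (Actn1), which crosslinks the filaments, went from 7526 ± 261 to 1993 ± 143 and from 3341 ± 171 to 838 ± 36.6. The difference between the lines in these falls was not called for these 3 genes, and was called for vinculin (Vcl), which reinforces the link of talin to actin. Vcl was 7681 ± 180.2 and 6548 ± 81 in white cells, a change of −0.23 (SE 0.0658, adjusted p = 0.0114), and 7511 ± 589 and 3242 ± 86.4 in brown cells, a change of −1.21 (SE 0.0658, adjusted p = 1.22e-07). The white fall of Vcl lost its call when its probe sets were averaged (adjusted p = 0.451).

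Zyxin (Zyx), which gathers at strained stress fibres, fell by 1.33 (SE 0.166) and 1.61 (SE 0.166), although a second probe set, of a design that can match several transcripts, gave 0.30 in white and −1.10 in brown cells. Of the PDZ and LIM proteins, Pdlim1 fell by 1.97 (SE 0.127) and 1.98 (SE 0.127). Pdlim7 fell by 0.53 (SE 0.0973) in white and by 2.00 (SE 0.0973) in brown cells. Integrin-linked kinase (Ilk), the scaffold under beta-1 integrin, had the smallest called changes. Its 1466 ± 34.1 and 1298 ± 44.8 in white cells gave −0.17 (SE 0.0594, adjusted p = 0.027), and 1317 ± 28.4 and 1153 ± 60.5 in brown cells gave −0.19 (SE 0.0594, adjusted p = 0.0186). The white call was lost without white adipocyte replicate 1 or 3 or white preadipocyte replicate 2 (adjusted p = 0.0526, 0.0882 and 0.0832), and the brown call without brown adipocyte replicate 1 or brown preadipocyte replicate 3 (adjusted p = 0.0734 and 0.0507).

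General actin genes fell in white cells without exception. Tagln2, a widely expressed relative of transgelin, read 6028, 5580.1 and 6218 in white preadipocytes and 115, 109 and 132 in white adipocytes. The brown line gave 2893, 1672 and 2249.7 before and 1093, 1078 and 1361 after differentiation. The brown groups lay close together and the white groups far apart, with a change of −5.47 (SE 0.176, adjusted p = 1.91e-09) in white and −0.91 (SE 0.176, adjusted p = 0.00119) in brown cells. A second Tagln2 probe set gave −2.83 and −0.46, the same order of the lines with smaller sizes.

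Filip1l, a filamin-interacting protein, read 2994, 2685 and 2868 before and 119, 126 and 140.3 after differentiation in white cells. Brown arrays read 1627, 1572 and 1784 before and 88.1, 71 and 76.7 after differentiation. The white and brown preadipocytes were far above the adipocytes of their line, and the difference between the lines in the fall was not called. The changes were −4.31 (SE 0.0898, adjusted p = 1.13e-10) and −4.15 (SE 0.0898, adjusted p = 3.41e-10).

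Calponin 2 (Cnn2), a calponin of non-muscle cells with a CArG box near its start, read 5502, 6013 and 5182 before and 1509, 1271 and 1341 after differentiation in white cells. Across brown arrays the values were 3605, 3628 and 3422 before and 199, 199 and 191 after differentiation. The brown adipocytes lay below every other array, and the change was −2.01 (SE 0.0794, adjusted p = 7.90e-09) in white and −4.07 (SE 0.0794, adjusted p = 2.40e-10) in brown cells.

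Calponin 3 (Cnn3), also a non-muscle calponin, read 15695, 17770.5 and 18041 before and 11547, 11340.2 and 11803 after differentiation in white cells. The brown line read 17706, 17298 and 16119 before and 3101, 3213 and 3054 after differentiation. With this probe set the preadipocytes of both lines overlapped. The fall was small in white cells, at −0.57 (SE 0.069, adjusted p = 3.89e-05), and larger in brown cells, at −2.44 (SE 0.069, adjusted p = 1.49e-09). The 5 other detected Cnn3 sets gave −0.68 to −1.95 in white and −2.26 to −2.86 in brown cells. At one end, a single set gave −1.95 and −2.26, and −1.15 between brown and white preadipocytes. The size of the white fall thus depended on the probe set, while each set fell more in brown cells.

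The other 8 general actin genes fell by 0.65 to 2.29 in white cells. The crosslinker filamin A (Flna) went from 4040.2 ± 292 to 813 ± 29.5 and from 2255 ± 167 to 528 ± 45.8, changes of −2.29 (SE 0.087) and −2.06 (SE 0.087). Non-muscle myosin heavy chain IIA (Myh9) changed by −1.67 (SE 0.0794) and −0.99 (SE 0.0794), and tropomyosin 4 (Tpm4) by −1.37 (SE 0.0621) and −0.73 (SE 0.0621). Actn4, the second non-muscle alpha-actinin, went from 6164 ± 250.4 to 2592 ± 106 in white cells and stood at 3951 ± 63.9 and 3908 ± 119.6 in brown cells. Lima1, which stabilizes filaments, changed by −1.49 (SE 0.0527) and −2.29 (SE 0.0527). Of the proteins of filament turnover, profilin 1 (Pfn1), which feeds monomer to growing ends, fell by 1.61 and 0.89. Cofilin 1 (Cfl1), which severs filaments, fell by 0.65 and 1.08, and destrin (Dstn), its relative, by 0.74 and 0.64.

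Of the 8 members with a CArG box in the window searched, all fell in white cells, as did 33 of the 34 tested members and 31.2% of all tested genes. In brown cells 7 of them fell and Fhl1 rose, against 30 of the 34 members and 31.6% of all genes lower. Nearly all members fell with or without a box, so direction cannot tell members with a box from the others.

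**Figure D3:**
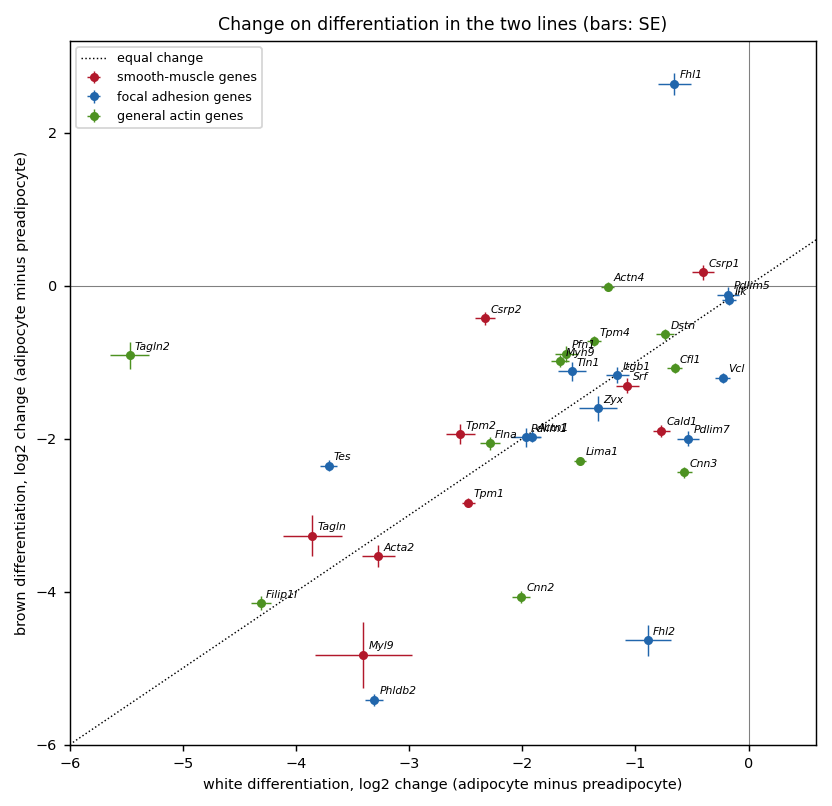
Log2 change on differentiation in the white line (x axis) against the brown line (y axis) for the 34 tested members, coloured by role, with SE bars and a dotted line of equal change. Most genes lie in the lower left with falls in both lines. Fhl1 lies far above the zero line at 2.64 in brown cells, Csrp1 just above it at 0.17 (not called), Tagln2 lies far to the left at −5.47 in white cells, and Fhl2 far below the line of equal change.

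The change on differentiation differed between the lines in 20 of 34 members, against 51.1% of all tested genes. The change in brown cells minus the change in white cells was called lower, a larger fall in brown cells, in 10 members and higher in 10, against 27.5% and 23.6% of all tested genes. A difference of at least 2-fold was lower in 6 and higher in 5, against 14.6% and 9.93% of all genes. The median over members was −0.01, against −0.05 over all genes. The gene farthest on the higher side was Tagln2 at 4.56 (SE 0.249, adjusted p = 2.54e-07), followed by Fhl1 at 3.29 (SE 0.202, adjusted p = 5.53e-07). Farthest on the lower side were Fhl2 at −3.75 (SE 0.286, adjusted p = 2.55e-06) and Phldb2 at −2.10 (SE 0.112, adjusted p = 2.13e-07). The per-array values of these 4 genes are given above.

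By role, 2 smooth-muscle genes were called lower and 3 higher. Cald1 (−1.13, SE 0.111) and Tpm1 (−0.36, SE 0.0826) fell more in brown cells, and Csrp2 (1.90, SE 0.125), Tpm2 (0.61, SE 0.183) and Csrp1 (0.58, SE 0.142) fell less or not. With the more specific probe set of Tpm2 the difference was −0.0395. Acta2, Tagln, Myl9 and Srf were not called. Myl9 was called at −0.80 (adjusted p = 0.0217) without brown adipocyte replicate 3, its low array.

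Among focal adhesion genes 4 were called lower and 2 higher. Beside Fhl2 and Phldb2 these were Pdlim7 (−1.47, SE 0.138) and Vcl (−0.98, SE 0.0931), which fell more in brown cells, while Tes (1.36, SE 0.107) and Fhl1 were higher. Among general actin genes 4 were lower and 5 higher. Cnn2 (−2.06, SE 0.112), Cnn3 (−1.87, SE 0.0976), Lima1 (−0.80, SE 0.0745) and Cfl1 (−0.43, SE 0.0932) fell more in brown cells. Tagln2, Actn4 (1.23, SE 0.0825), Pfn1 (0.72, SE 0.148), Myh9 (0.68, SE 0.112) and Tpm4 (0.64, SE 0.0879) fell less there or, for Actn4, were not called. With all probe sets of a gene averaged, Tpm1, Tpm2, Myh9 and Cfl1 lost these calls (adjusted p = 0.0518, 0.599, 0.208 and 0.233). The Tpm1 average took in a probe set below the filter. For Cfl1, the probe set of more specific design gave 0.0686, so its direction depends on the probe set.

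Before induction, members tended to be lower in the brown line. In brown against white preadipocytes 19 members were lower, 6 higher and 9 not called, against 23.8% of all genes lower and 31.3% higher. At least 2-fold, 4 were lower and 2 higher, against 6.36% and 11.6%. The median was −0.37, against 0.07 over all genes. General actin genes were lower in 9 of 12 and higher in 0, focal adhesion genes lower in 6 and higher in 3 of 13, and smooth-muscle genes lower in 4 and higher in 3 of 9. Arrays of the lines did not overlap in 28 of 34 members, and did not overlap in 62% of all tested genes.

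The 4 largest differences were those of Tes at −2.64 (SE 0.0759, adjusted p = 2.37e-09), Fhl1 at −2.26 (SE 0.143, adjusted p = 5.17e-07), Myl9 at 1.53 (SE 0.428, adjusted p = 0.0117) and Tagln2 at −1.41 (SE 0.176, adjusted p = 6.73e-05). The Myl9 difference lost its call with a pseudocount of 1 (adjusted p = 0.133). The 6 that were higher in brown preadipocytes were Myl9, Csrp1 (1.02, SE 0.1001), Fhl2 (0.82, SE 0.202), Srf (0.79, SE 0.101), Pdlim1 (0.48, SE 0.127) and Itgb1 (0.27, SE 0.101). Itgb1 had an adjusted p of 0.0472 and stood at −0.0133 with equal medians, and its call was lost without any 1 of the 3 brown preadipocyte arrays (adjusted p = 0.0826, 0.0808 and 0.117). The specific probe set of Srf gave −0.26, the opposite direction. Acta2 was lower in brown preadipocytes at −0.88 (SE 0.145), and Actn1 at −1.17 (SE 0.0717), while Tagln was 594 ± 34.3 and 601 ± 56.6. With all probe sets of a gene averaged, the calls of Acta2, Pdlim1, Srf, Tpm1, Myh9 and Itgb1 were lost (adjusted p = 0.469, 0.694, 0.0685, 0.325, 0.788 and 0.358).

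After differentiation the lines differed in either direction. In brown against white adipocytes 18 members were lower, 11 higher and 5 not called, against 29.5% and 30.1% of all genes, so the lower share of the members (18 of 34) was above the background and the higher share (11 of 34) near it. At least 2-fold, 12 were lower and 4 higher, against 11.2% and 11.9%. The median was −0.39, against 0.00 over all genes. Focal adhesion genes were lower in 9 and higher in 3 of 13, general actin genes lower in 6 and higher in 4 of 12, and smooth-muscle genes lower in 3 and higher in 4 of 9. Arrays did not overlap in 31 of 34 members, against 65.6% of all tested genes.

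The 4 largest differences were Tagln2 at 3.14 (SE 0.176, adjusted p = 1.39e-07), Fhl2 at −2.93 (SE 0.202, adjusted p = 6.38e-07), Cnn2 at −2.71 (SE 0.0794, adjusted p = 1.72e-09) and Phldb2 at −2.59 (SE 0.0789, adjusted p = 2.18e-09). Lower in brown adipocytes were also Cnn3 (−1.88, SE 0.069), Cald1 (−1.55, SE 0.0783), Pdlim7 (−1.33, SE 0.0973), Tes (−1.28, SE 0.0759), Actn1 (−1.23, SE 0.0717) and Acta2 (−1.14, SE 0.145). The 11 that were higher were Tagln2, Csrp1 (1.60, SE 0.1001), Csrp2 (1.47, SE 0.0886), Fhl1 (1.03, SE 0.143), Tpm2 (0.86, SE 0.129), Actn4 (0.59, SE 0.0584), Srf (0.56, SE 0.101), Tpm4 (0.48, SE 0.0621), Pdlim1 (0.46, SE 0.127), Tln1 (0.44, SE 0.124) and Myh9 (0.35, SE 0.0794). Of these, Srf was −0.79 with its specific probe set, and Tpm2 and Myh9 lost their calls with theirs (adjusted p = 0.0606 and 0.186). With all probe sets averaged, Acta2, Fhl1, Pdlim1, Tln1 and Myh9 lost theirs (adjusted p = 0.0833, 0.13, 0.46, 0.0692 and 0.122), and Srf stood at −0.11. For Acta2, Fhl1 and Pdlim1 the average took in probe sets below the filter. Tln1 lost its call also with equal medians (adjusted p = 0.0612).

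The 5 that were not called were Tagln (0.60, SE 0.263, adjusted p = 0.0733), Myl9 (0.10, SE 0.428, adjusted p = 0.857), Itgb1 (0.25, SE 0.101, adjusted p = 0.0539), Dstn (−0.17, SE 0.0774, adjusted p = 0.0911) and Pfn1 (−0.12, SE 0.104, adjusted p = 0.343). Tagln and Myl9 were near the filter level in adipocytes of both lines. Tagln was called without white adipocyte replicate 2 or brown adipocyte replicate 2 (adjusted p = 0.0319 and 0.0346), and stood at 0.28 without brown adipocyte replicate 3. Without brown adipocyte replicate 3 the Myl9 difference was 0.73 (adjusted p = 0.00659). Pfn1 and Dstn were called lower with equal medians, at −0.26 and −0.30 (adjusted p = 0.0262 and 0.0111), while scaling to hybridization controls put Pfn1 at 0.029 and called Itgb1 at 0.40 (adjusted p = 0.00904) and Tagln at 0.69 (adjusted p = 0.0454).

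**Figure D4:**
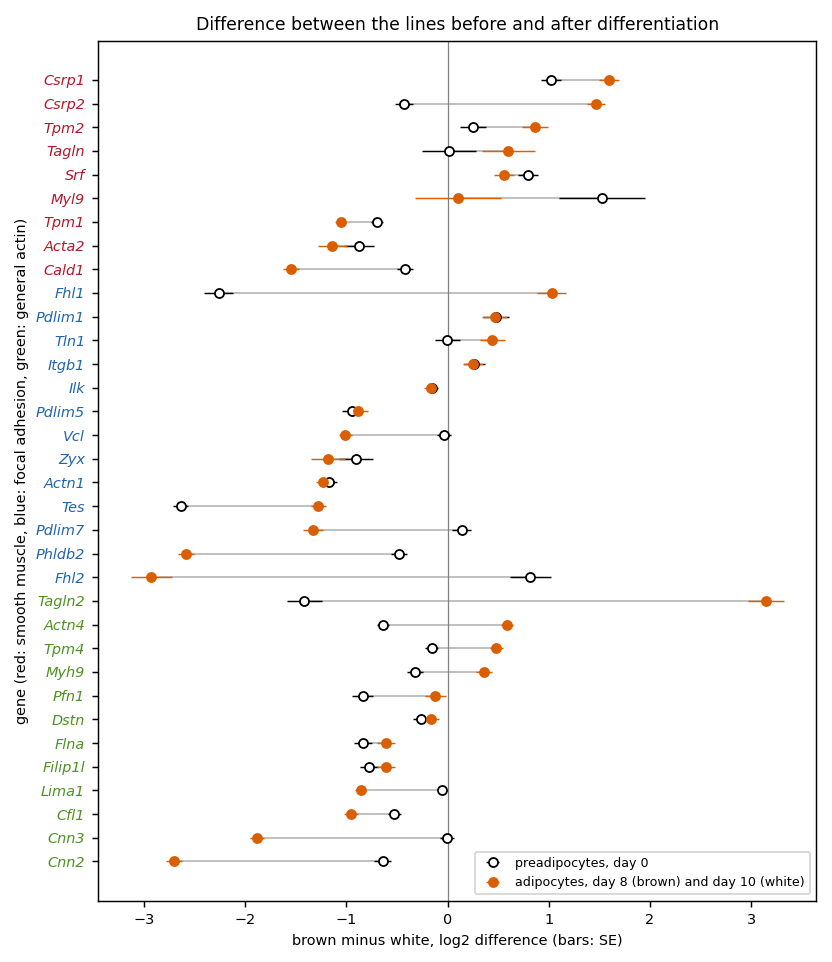
Brown minus white log2 difference of the 34 tested members in preadipocytes (open black circles) and adipocytes (filled orange circles), with SE bars, gene names coloured by role. Tagln2 and Fhl1 cross from negative values in preadipocytes to positive values in adipocytes, and Fhl2 crosses the other way, from 0.82 to −2.93.

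Other genes of the actin pathway, a list of 60 of which 57 were found and 56 tested, had smaller median changes than the members. In white differentiation 38 fell, 6 rose and 12 were not called (median −0.60), and in brown differentiation 39 fell, 6 rose and 11 were not called (median −0.69). The percentages of all genes called are those given above for each line. The 4 listed targets of MRTF and YAP all fell in both lines, as did both tested SRF coactivators. Actin turnover genes fell in 12 of 14 in white and 13 of 14 in brown cells. Other adhesion genes fell in 9 and rose in 1 of 11 in white cells, and fell in 8 and rose in 2 in brown cells. Of 5 actin isoforms 2 fell in white and 4 in brown cells.

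Of the cytoplasmic actins, Actb stood at 23679.6 ± 1384 and 22293 ± 1805 in white cells (−0.09, SE 0.0911, adjusted p = 0.433) and at 22846 ± 2147 and 18267 ± 901 in brown cells (−0.32, SE 0.0911, adjusted p = 0.0119). Actg1 fell in both, by 0.41 (SE 0.0799) and 0.92 (SE 0.0799). The enteric smooth muscle actin Actg2 was among the largest falls in white cells, from 277 ± 41.3 to 14.6 ± 12 (−3.33, SE 0.321). The SRF coactivators fell too: Mrtfa by 1.73 (SE 0.108) and 1.22 (SE 0.108), and Mrtfb by 0.68 (SE 0.117) and 0.44 (SE 0.117). Myocd, the coactivator of smooth and cardiac muscle, was too dim to test.

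The matricellular genes Ccn1 and Ccn2, targets of both MRTF and YAP, were among the largest falls. Ccn1 went from 4253 ± 868 to 430.0 ± 73.3 in white and from 10004 ± 1620.3 to 370.5 ± 58.9 in brown cells, changes of −3.25 (SE 0.187) and −4.70 (SE 0.187). Ccn2 went from 2898 ± 352 to 588 ± 85 in brown cells (−2.27, SE 0.181) and was dim in white cells. Ezr, which links actin to the membrane, fell by 3.21 (SE 0.101) in white cells.

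Of the 10 other contractile genes tested, 4 fell, 3 rose and 3 were not called in white cells, and 5 fell, 2 rose and 3 were not called in brown cells. Smtn, Tpm3, Myl12a and Myl12b fell in both lines, and Lmod1 in brown cells. The intermediate filament gene Des went from 133 ± 39 to 685 ± 36.8 in white cells (2.27, SE 0.28) and rose by 1.03 (SE 0.28) in brown cells. Smooth muscle myosin (Myh11) rose in white cells from 9.82 ± 8.31 to 133 ± 18.4 (2.58, SE 0.411). Mylk, the myosin light chain kinase, rose by 1.07 (SE 0.0804) in white and by 1.00 (SE 0.0804) in brown cells.

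**Figure D5:**
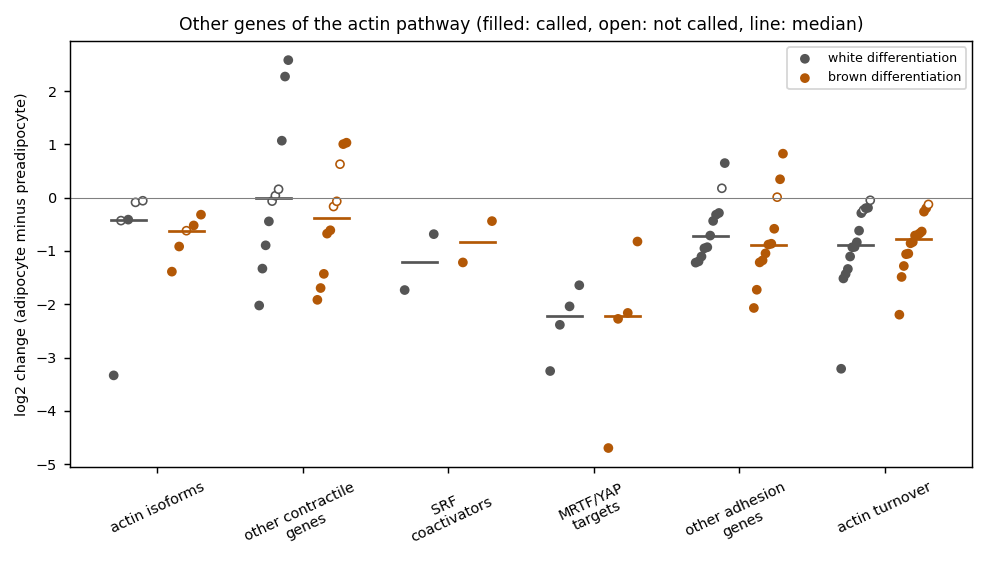
Log2 change on differentiation of tested other genes of the actin pathway, in 6 groups, in white (grey, left of each pair) and brown cells (orange, right of each pair). Filled points were called, open points were not, and lines are group medians. The targets of MRTF and YAP lie lowest, with medians of −2.21 and −2.22, and the other contractile genes spread to both sides of zero.

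Values that move together with the fall of the members are given here. Markers of differentiated smooth muscle cells (Myh11, Lmod1, Des, Synpo2 and Myocd, of which 4 of 5 were tested) summed to 143 to 196 in white preadipocytes and 814 to 922 in white adipocytes. In the brown line they summed to 219 to 280 and to 336 to 348. Des made up most of these sums, except on brown preadipocyte replicate 3, where it read 68.5 of 219. In white cells Des and Myh11 rose, Lmod1 and Synpo2 were not called and Myocd was too dim to test. In brown cells Des rose, Lmod1 fell from 62.4 to 8.20 and the other tested markers were not called. The lowest single marker read 1.31 to 3.52 in the 4 groups. Pericyte markers (4 of 4 tested) summed to 121 to 125 in white preadipocytes and 1745 to 1851 in white adipocytes, and to 1036 to 1057 and 1290 to 1449 in brown cells. In white cells Mcam (8.66 to 1496) and Notch3 rose, Rgs5 fell and Cspg4 was not called, and in brown cells Mcam and Cspg4 rose while Rgs5 and Notch3 (604 to 195) fell. Skeletal muscle markers (3 of 7 tested) summed to 147 to 303 over all arrays, and macrophage markers (4 of 5 tested) to 386 to 719. Brown fat markers (4 of 4 tested) went in sum from 885 to 997 in brown preadipocytes to 9758 to 10671 in brown adipocytes, against 49.8 to 424 in the white line. All 4 rose in brown cells, and Cidea (10.4 to 6754) made up most of the brown adipocyte sum. Ppargc1a went from 497 to 2472, Ucp1 from 18.3 to 382 and Prdm16 from 428 to 696. Adipocyte markers (5 found, Adipoq and Pparg among them) summed to 8487 to 9315, 101320 to 115164, 47414 to 55781 and 82834 to 86546 in the 4 groups, in the order white preadipocytes, white adipocytes, brown preadipocytes and brown adipocytes. Preadipocyte markers (4 of 4 tested) summed in the same order to 17550 to 19465, 7866 to 8958, 12213 to 12872 and 596 to 676. In white cells Dlk1 and Pdgfrb (9561 to 4505) fell, while Pdgfra (2595 to 2970) and Cd34 were not called. In brown cells all 4 fell. The part of these marker values in the results was not tested.

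The beta-actin control for RNA and labelling moved with differentiation, while the Gapdh control moved little, down in white and up in brown cells. The signal ratio of the 3′ to the 5′ beta-actin control probe sets was 1.40 ± 0.0554 (SD, n = 3) in white preadipocytes, 2.25 ± 0.151 in white adipocytes, 1.49 ± 0.0626 in brown preadipocytes and 2.42 ± 0.0478 in brown adipocytes. The same ratio for Gapdh was 0.861, 0.828, 0.775 and 0.814. The beta-actin 3′ set went from 27284 to 23203 in white and from 26526 to 20074 in brown cells, and the 5′ set from 19514 to 10358 and from 17845 to 8284, so the measured fall of this actin depended on the position of the probes. The part of this ratio in the falls of the members was not tested.

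Of the 34 tested members, 13 had a single probe set. Of 45 other detected probe sets of 19 members, 42 moved in the direction of the one used in white cells and 41 in brown cells. Of the 36 probe sets used, 20 were of the most specific design, and 16 were of designs that can match several transcripts.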

How the data were processed

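Each deposited value was the signal intensity of 1 probe set on 1 array. The submitters' processing notes name Affymetrix Expression Console, and its version and algorithm are not stated in the labels or files used here. RNA came from a kit for lipid-rich tissue and was amplified into biotin-labelled cRNA from transcript 3′ ends, per the labels' protocols. The deposited intensity after trimming 2% at each end averaged 500.003 to 500.004 on every array, so arrays had been scaled alike, which hides changes in total RNA per cell. Nothing in the labels says whether replicates were separate cultures, so p-values measure the spread between these arrays, which may be technical. No 2 arrays held identical values, and correlations within groups were 0.978 to 0.982.

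Of 45101 probe sets, 34945 carried 1 symbol in the platform annotation, 932 several and 9211 were unlisted. Affymetrix control probe sets named no gene. Gene identifiers of 34741 matched the RefSeq table (GRCm38.p6), with 0 symbols changed. The probe set with the highest mean stood for each of 18193 genes. Genes above the array's 40th percentile (32.9 to 41.2) on at least 3 of 12 arrays were tested. limma 3.58.1 (R 4.3.3) fitted 4 group means to log2(signal + 16), with 8 residual and 1.81 prior degrees of freedom. Benjamini-Hochberg adjustment ran over 13752 genes. Python 3.11.15, numpy 2.4.6, pandas 2.3.3 and matplotlib 3.10.9 served for promoters and plots. On simulated data with 13752 genes in the white comparison, 48.4% of 64 genes changed by 0.5, 82.4% of 68 changed by 1 and 94.1% of 68 changed by 2 (log2) were recovered, with 8 false calls among 13552. The simulation left those 13552 genes unchanged, whereas in the measured white comparison 31.2% of genes were called lower and 30.1% higher. Its recovered shares thus do not give the sensitivity of the comparisons reported.

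Members, lists and tests were chosen with earlier results of these data known. Arrays' values were printed for the 4 members of each role with the largest change in either differentiation, and for the 4 largest in each comparison between the lines. Members against the majority, and members not called where 8 or fewer, were named. Of the pathway list, the 3 largest called changes each way per differentiation were named (except in the group left out, as given below), with Actb, Actg1, the SRF coactivators and the beta-actin controls. Marker lists covered adipocytes, brown fat, preadipocytes, smooth muscle cells, pericytes, skeletal muscle, macrophages and endothelial cells. Plin1, Ly6a, Actr2 and Arpc1b were not analysed here, and 1 group of the pathway list, with its genes, is counted in the totals but not reported here. Alternatives were other pseudocounts (1 and 64), scalings between arrays, filters, choices of probe set, moderation of the variance, fits of only the arrays compared, a replicate block, stricter thresholds and each array left out. The number of arrays limits the precision.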

Additional observations from a re-analysis of the deposited data

Results flagged for a closer look

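The change on differentiation differed between the lines, by limma's test of that difference, in 20 of 34 members, a share near that of all tested genes (51.1%). Values are the brown change minus the white change on the log2 scale, so a negative value is a larger fall in brown cells. The 10 negative values were Fhl2 at −3.75, Phldb2 at −2.10, Cnn2 at −2.06, Cnn3 at −1.87, Pdlim7 at −1.47, Cald1 at −1.13, Vcl at −0.98, Lima1 at −0.80, Cfl1 at −0.43 and Tpm1 at −0.36. The 10 positive values were Tagln2 at 4.56, Fhl1 at 3.29, Csrp2 at 1.90, Tes at 1.36, Actn4 at 1.23, Pfn1 at 0.72, Myh9 at 0.68, Tpm4 at 0.64, Tpm2 at 0.61 and Csrp1 at 0.58. The brown line carried adipocyte genes at day 0, and it differed from the white line in induction mix and harvest day, so these cannot be told apart from the line.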

How the results depend on the processing

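Under 25 alternative fits, and under the stricter thresholds, the counts of members lower and higher stayed within 1.5 times of those reported, with the following exceptions. With all probe sets of a gene averaged, those below the filter included, 6 members were higher in brown than in white adipocytes, in place of 11. With less specific probe sets left out, 26 members could be tested, and 4 were higher in brown than white adipocytes and 4 had a higher change in brown than in white cells, in place of 10. At a change of at least 2-fold the difference between the lines was lower in 6 and higher in 5, preadipocytes were lower in 4 and higher in 2, and adipocytes were higher in 4. With each array left out in turn, members lower and higher numbered 32 to 34 and 0 in white differentiation, 29 to 30 and 1 in brown differentiation, 10 to 11 and 10 to 11 for the difference between the lines, 18 to 20 and 5 to 7 in preadipocytes, and 17 to 19 and 11 to 12 in adipocytes.

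Of the values of single members, 3517 of 3618 kept direction and call, 62 lost the call, 24 gained one and 15 reversed, and the cause was not tested. In brown against white adipocytes Myl9 was −0.16 with a pseudocount of 1, and −0.23 to 0.73 with an array left out. Actn4 in brown differentiation was 0.00369 with equal medians and −0.0409 to 8.2e-05 with an array left out, and Itgb1 in preadipocytes was −0.0133 with equal medians. Scaled to hybridization controls, Csrp1 in brown differentiation was −0.0408 and Pfn1 in adipocytes 0.029. With probe sets averaged, Srf was −0.11 and Itgb1 −0.0803 in adipocytes. With less specific probe sets left out, the difference between the lines was −0.0395 for Tpm2 and 0.0686 for Cfl1, and Srf was −0.26 in preadipocytes and −0.79 in adipocytes.

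Scaling to hybridization controls moved the median of all genes to −0.23 in white and −0.22 in brown differentiation, where 5643 and 5626 genes were then lower and 2951 and 2640 higher, in place of 4286 and 4342 lower and 4141 and 3736 higher. The members' medians were then −1.80 and −1.96. In preadipocytes equal medians gave 4949 genes lower and 2735 higher, in place of 3274 and 4307, with a median of −0.18 over all genes and −0.65 over members, and in adipocytes hybridization scaling gave 3183 lower and 4897 higher, in place of 4061 and 4140.

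Replicate numbers did not pair the arrays: over 18 pairs, deviations correlated by −0.03 to 0.07. With the replicate number as a block, members lower were 33, 30, 10, 19 and 18 in the 5 comparisons and members higher 0, 1, 10, 5 and 11. Of 12 arrays 6 correlated best with their own number. Genes near the filter level, Tagln and Myl9 in adipocytes, have changes that the lower limit of the signal compresses.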
